A study of Mus musculus with 11 samples.

Results

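Among 6 control mouse hearts, 2 held far less Apoe message than the others, and this account describes what else set those 2 hearts apart. Apoe encodes apolipoprotein E, the lipid-carrying protein that macrophages and other cells load with cholesterol for export. The series holds 11 heart libraries from female mice, all given the genotype WT by the labels. The 6 controls had prenatal vehicle (PBS), and the 5 mice of the polycystic ovary syndrome (PCOS) model had prenatal AMH, the anti-Müllerian hormone. The labels give no age, litter, batch or day, and they do not say whether each library came from its own mouse.

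The groups were chosen by measured values and not by a label. The control library with Alb above 100 FPKM was left out. FPKM is the fragment count scaled to transcript length and library total. Of the 5 controls that remained, those with Apoe below 20 FPKM formed the Apoe-low group (controls 2 and 5), and those above 90 FPKM formed the Apoe-normal group (controls 1, 3 and 4). The 5 PCOS libraries served as an outside reference. Since Apoe chose the groups and every gene below was measured in the same 5 libraries, the values are a description and nothing was tested. The groups hold only 2 and 3 libraries. A row is called separated when the 2 groups do not overlap, and called when it is separated and the group means also differ at least 1.5-fold. All differences are Apoe-low minus Apoe-normal of mean log2(FPKM + 1); the added 1 makes the differences of low genes too small. Cardiomyocyte markers such as Tnnt2 and Ryr2 summed to 33616 to 35182 FPKM in Apoe-low and to 31896 to 36589 in Apoe-normal, so these markers of heart muscle were abundant in both groups. The libraries held between 11866291 and 14346620 reads, and a compared row had a median of 380 reads per library.

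Apoe is one of the classical targets of the liver X receptors, nuclear receptors that sense oxidised cholesterol derivatives. With their partner RXR they bind a direct repeat in DNA and turn on genes that export cholesterol from the cell, limit its uptake and build fatty acids. Abca1 and Abcg1 encode the pumps that hand cholesterol to apolipoprotein A1 and to high-density lipoprotein, and Mylip encodes a ubiquitin ligase that limits lipoprotein uptake. Macrophages, which also reside in the heart, are the cells in which this response is best known.

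The promoter matches below are shown because all 3 genes of the liver X receptor list that carry one were separated and higher in Apoe-low. They were chosen with these values known. Of the 5 list members called higher only Abca1 carries a match, while Fasn and Srebf1 were not called. The motif searched was 2 copies of GGTNA with 5 bases of any kind between them, on both strands, in RefSeq windows (GRCm38.p6) from 250 bases before to 50 after each annotated start. It matched 236 of 32851 windows, or 0.718%. Of the 21 genes in the liver X receptor list, 15 had a window, and 3 of them a match. The 0.718% counts windows and the list counts are of genes, so they are not like for like. Each sequence runs 5′ to 3′ on the gene's strand, with the match, which reads on the opposite strand, in capitals.
Abca1: cagcgttTGACCGGTAGTAACCccggcgc
Fasn: gccacgaTGACCGGTAGTAACCccgcctg
Srebf1: acgacagTGACCGCCAGTAACCccagcgc
These stretches lie on the minus strand at chr4:53159941-53159969 (Abca1), chr11:120824751-120824779 (Fasn) and chr11:60210632-60210660 (Srebf1). The match ended 53 bases before the annotated start in the Abca1 window, 211 before that of Fasn and 168 before that of Srebf1. All 3 starts are internal: the table's gene spans reach further upstream, to 53159988 for Abca1, 120825166 for Fasn and 60224186 for Srebf1, so the matches lie inside the annotated genes. Over their 15 bases the Abca1 and Fasn matches were identical, and Srebf1 differed from Abca1 by G7C and T8C, counted from 1 at the first capital. A match is a description of the letters and not a measured binding site.

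Apoe itself, on chromosome 7 (19696244 to 19701310, GRCm38.p6), was at 6.04 FPKM in control 2 and 8.29 in control 5. These values stand for 133 and 156 reads. It was at 180 FPKM in control 1, 158 in control 3 and 98.8 in control 4, which stand for 3731, 3554 and 1980 reads. The libraries nearest to the thresholds were control 5, at 8.29 FPKM well below 20, and control 4, at 98.8 FPKM close above 90. The message was reduced but present in both Apoe-low hearts. The name Apoe-normal applies within the controls, because the 5 PCOS hearts lay higher still, between 274 and 337 FPKM with a median of 314. The left-out control was at 486 FPKM for Apoe and 851.7 for Alb, against at most 1.06 for Alb in any compared library.

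The cholesterol pumps were higher in both Apoe-low hearts. Abca1 was at 7.52 and 7.10 FPKM in controls 2 and 5, and at 3.38, 3.51 and 2.50 in controls 1, 3 and 4. The difference was 1.02, and the PCOS hearts, at 2.83 to 3.79, sat with the Apoe-normal group. Abcg1 was at 3.38 and 3.47 FPKM in Apoe-low, and at 1.43, 1.21 and 0.598 in Apoe-normal. Its difference was 1.11, and the PCOS hearts reached from 1.09 to 1.95 FPKM. For both pumps the 2 Apoe-low libraries were close to each other and above every other library of the series. Mylip was at 14.9 and 16.9 FPKM in Apoe-low, and at 9.94, 8.80 and 5.73 in Apoe-normal, a difference of 0.91. The PCOS hearts spanned 7.01 to 10.5 FPKM for Mylip.

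The lipid-building targets were higher too, by smaller margins apart from Scd2. Scd2, a stearoyl-CoA desaturase, was at 10.2 and 10.8 FPKM in Apoe-low, and at 5.18, 4.39 and 3.51 in Apoe-normal, a difference of 1.11. Its relative Scd1 was at 3.35 and 3.99 FPKM in Apoe-low, and at 2.60, 2.04 and 1.46 in Apoe-normal, a difference of 0.64. Another desaturase gene, Scd4, ran the other way, with 3.45 and 3.32 FPKM in Apoe-low, and 6.21, 5.12 and 6.11 in Apoe-normal. These 3 genes belong to one family and lie close together on chromosome 19. How reads that fit several genes of the family were counted is not given in the sources used here. Fasn, the fatty acid synthase, was at 4.26 and 4.75 FPKM in Apoe-low, and at 3.44, 2.63 and 3.26 in Apoe-normal, a difference of 0.42. Srebf1, the transcription factor that drives fatty acid synthesis, was at 11.8 and 7.75 FPKM in Apoe-low, and at 7.45, 7.05 and 6.14 in Apoe-normal. Control 2 gave most of the Srebf1 difference of 0.43, because control 5 lay barely above control 1. Arl4c, a small GTPase linked to cholesterol secretion, was separated with a difference of 0.35.

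**Figure D1:**
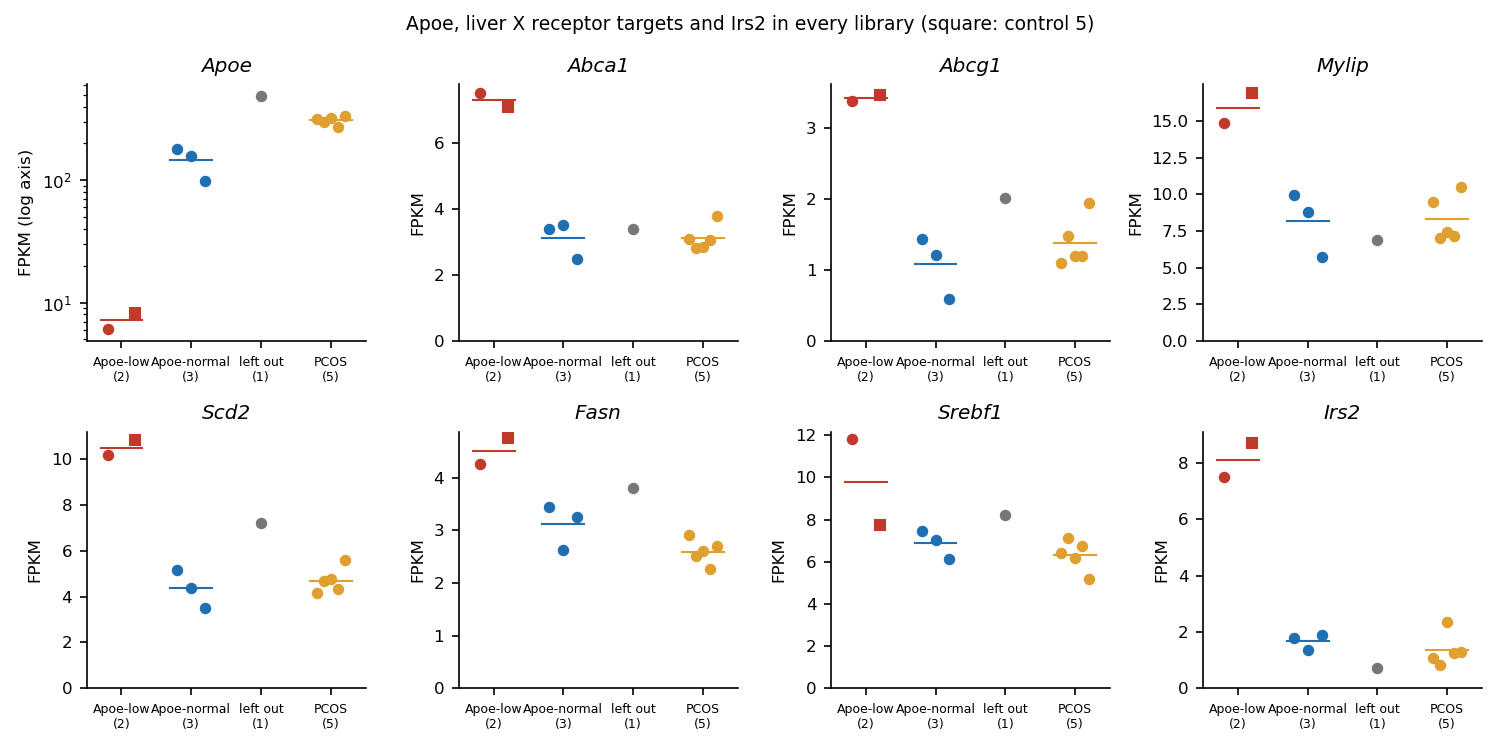
Level in FPKM of Apoe (log axis) and of 7 further genes (linear axes from 0) in each of the 11 libraries; lines are group means and the square is control 5. Both Apoe-low libraries lie above every other library for Abca1, Abcg1, Mylip, Scd2, Fasn and Irs2, while for Srebf1 control 5 (7.75) lies below the left-out control (8.20).

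The receptors themselves did not follow this order. Nr1h3, the receptor LXR-alpha, was at 7.12 and 8.33 FPKM in Apoe-low and lay on both sides of the 7.69 to 8.24 of Apoe-normal. Nr1h2 (LXR-beta) and Rxra overlapped between the groups, and Rxrb was separated and lower by only 0.17. Among the remaining targets Pltp, Lpl, Smpdl3a and Mlxipl overlapped. Lpl, the lipase that is very abundant in heart muscle, was at 1621 and 1733 FPKM in Apoe-low, against 1415 to 1645. Abcg5, Abcg8 and Apoc1 were under the mean of 1 FPKM required, and no row matched Lpcat3.

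Apoe chose the groups, so it is left out of the counts of its list that follow. Of the 16 other members described, 8 were separated and higher and 1 (Rxrb) separated and lower. Over all 10772 rows, 9.2% were separated and higher and 9.94% separated and lower. Called higher were 5 members (Abca1, Abcg1, Mylip, Scd1 and Scd2) and 0 were called lower, beside 0.594% of all rows called higher and 0.297% called lower. The median difference of these 16 was 0.29, beside -0.0045 over all rows. With Apoe included it was 0.23, and then 0.050 when rows needed a mean of 5 FPKM and 0.084 when the left-out control joined the Apoe-normal group, while 2 and 4 members were then called higher. Abca1, Abcg1, Mylip and Irs2 were set as markers of the comparison with these values known, and they are no independent evidence of its direction.

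Several macrophage markers were also higher in Apoe-low. Of 14 listed, 11 had a row and 10 were described. Of those, 6 were separated and higher and 2 called higher, beside 9.2% and 0.594% of all rows. No listed marker with a row was at 0 in all compared libraries. Their summed level was 207.5 to 269.2 FPKM in Apoe-low and 139.4 to 196.6 in Apoe-normal. Lyz2, the lysozyme of myeloid cells, was at 96.4 and 118 FPKM in Apoe-low, and at 92.8, 83.1 and 60.9 in Apoe-normal. C1qc, a complement subunit made by tissue macrophages, was at 26.8 and 38.0 FPKM in Apoe-low, and at 23.8, 20.9 and 16.2 in Apoe-normal. The PCOS hearts had the highest summed level, 307.5 to 422.5 FPKM, while their Abca1 and Abcg1 stayed below both Apoe-low hearts. The part of macrophage content in the Apoe-low values was not tested, and in whole tissue more cells and more RNA per cell cannot be told apart.

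No other gene of sterol metabolism in the lists below reached 1.5-fold with separated groups. Cholesterol synthesis had 17 members described, of which 5 had a higher mean in Apoe-low. In that list 4 were separated and higher and 5 separated and lower, beside 9.2% and 9.94% of all rows, and 0 were called, with a median of -0.17. Srebf2, the factor that drives the pathway, was at 4.38 and 4.31 FPKM in Apoe-low, and at 6.38, 4.71 and 5.31 in Apoe-normal. Among 12 lipoprotein receptors and sterol handlers, 2 were separated and higher, 3 separated and lower and 0 called.

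Irs2 had the widest gap of all rows that were higher in Apoe-low. It encodes insulin receptor substrate 2, an adaptor between the insulin receptor and PI3-kinase, and lies on chromosome 8 (10984681 to 11008929). Irs2 was at 7.50 and 8.71 FPKM in Apoe-low, and at 1.79, 1.35 and 1.89 in Apoe-normal, which stand for 418 and 415 reads against 94, 77 and 96. The difference was 1.77, and the 5 PCOS hearts lay between 0.822 and 2.36 FPKM. The rest of the insulin pathway did not share it. Of 20 members described, 4 were separated and higher and 0 separated and lower, beside 9.2% and 9.94% of all rows. Irs2 alone was called. Irs1, the related adaptor, was at 4.97 and 3.88 FPKM in Apoe-low, and at 3.47, 3.61 and 3.20 in Apoe-normal. Akt1 and Pdpk1, kinases below PI3-kinase, were separated with differences of 0.12 and 0.17. The receptor Insr was at 20.9 and 19.8 FPKM in Apoe-low, against 19.6 to 20.9 in Apoe-normal, and the glucose transporter gene Slc2a4 overlapped as well.

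Irs2 is also a target of the FOXO factors, which act when insulin signalling is low. That list had 9 of 18 described members separated and higher and 1 separated and lower, beside 9.2% and 9.94% of all rows. Called higher were 3, Irs2, Pdk4 and Txnip, beside 0.594% of all rows, and Irs2 had been set as a marker. Pdk4, the kinase that shuts off pyruvate dehydrogenase, was at 115 and 161 FPKM in Apoe-low, and at 60.9, 61.8 and 64.3 in Apoe-normal. The PCOS hearts reached from 37.6 to 75.9 FPKM for Pdk4, below both Apoe-low hearts. Txnip, which restrains glucose uptake, was at 363 and 548 FPKM in Apoe-low, and at 145, 270 and 310 in Apoe-normal. Its difference was 0.95, and 0.62 without control 1. Among 19 PPAR-alpha targets Pdk4 was the 1 called higher. Pdk4 was the 1 called member among 20 genes of glucose uptake and glycolysis, where 6 were separated and higher.

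A larger share of the genes beside Apoe was separated or called than of genes elsewhere. Within 10 Mb of Apoe on chromosome 7, 48 of 138 rows other than Apoe were separated (17 higher, 31 lower), or 34.8%, against 18.7% of 8783 rows on all other chromosomes. Called were 11 of the 138 rows, 7 higher and 4 lower, or 7.97%, against 0.797% on other chromosomes. Within 1 Mb, 50% of 32 rows were separated, and from 1 to 5 Mb, 40.6% of 32 rows. From 5 to 10 Mb, 25.7% of 74 rows were separated and 4.05% called. From 10 to 20 Mb, 26.8% of 97 rows were still separated (4 higher, 22 lower), while 1.03% were called. Beyond 20 Mb on the same chromosome the shares were 18.3% separated and 1.05% called over 475 rows. The called count within 10 Mb was 10 to 14 when each compared library was left out in turn.

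Igsf23, an immunoglobulin superfamily gene 0.24 Mb beyond Apoe (19937305 to 19953654), was at 5.48 and 5.44 FPKM in Apoe-low, and at 0.798, 1.25 and 1.81 in Apoe-normal. Its difference was 1.52. Trappc6a, a subunit of a vesicle-tethering complex, lies 0.18 Mb before Apoe (19508665 to 19516145). It was at 42.7 and 47.8 FPKM in Apoe-low, and at 20.6, 23.1 and 18.3 in Apoe-normal. For both genes the PCOS hearts lay below the Apoe-low pair, with 0.154 to 1.04 FPKM for Igsf23 and 19.7 to 26.0 for Trappc6a. Ercc2, a helicase of nucleotide excision repair 0.30 Mb before Apoe (19382017 to 19395694), was lower, at 2.82 and 2.61 FPKM against 6.56, 5.45 and 5.13. Blvrb, biliverdin reductase B, lies 7.75 Mb beyond Apoe (27447978 to 27465981) and was at 40.9 and 41.1 FPKM against 15.0, 16.3 and 14.6. Pnmal2 was at 4.14 and 4.08 FPKM against 1.88, 1.56 and 1.76. These 5 genes were named for their wide gaps, so the distance between their groups follows from that choice.

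The other 6 called rows of the region, and Tomm40 and Bcam, were named after their values were seen. Sae1, Ccdc8 and Zfp36 were called higher, and Slc1a5, Smg9 and Lgals4 were called lower. Zfp36, also in the immediate-early list, was at 62.9 and 77.5 FPKM in Apoe-low, and at 33.9, 60.4 and 31.0 in Apoe-normal. Its groups were thus barely separated, and the PCOS hearts were at 61.2 to 100 FPKM. Lgals4 was at 24.9 FPKM in control 2 and 7.52 in control 5, and at 51.5, 37.4 and 32.6 in Apoe-normal. The PCOS hearts spanned 15.8 to 68.3 FPKM for Lgals4. Sae1, a subunit of the enzyme that activates SUMO, was at 23.3 and 24.2 FPKM in Apoe-low, and at 14.8, 13.9 and 13.3 in Apoe-normal. Smg9, a factor of nonsense-mediated decay, was at 2.52 and 3.29 FPKM in Apoe-low, and at 6.43, 5.75 and 4.71 in Apoe-normal. Tomm40, the mitochondrial import pore that starts 3 bases beyond the end of Apoe, was at 53.7 and 54.1 FPKM in Apoe-low, and at 60.4, 60.4 and 64.4 in Apoe-normal. Bcam, a laminin receptor 0.055 Mb beyond Apoe, was at 111 and 101 FPKM in Apoe-low, and at 160, 158 and 144 in Apoe-normal. Both were separated and lower but short of 1.5-fold. In 9 of the 11 called rows near Apoe, all 5 PCOS hearts lay on the Apoe-normal side of both Apoe-low hearts, or 81.8%, against 37 of the 84 other called rows, or 44.0%.

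**Figure D2:**
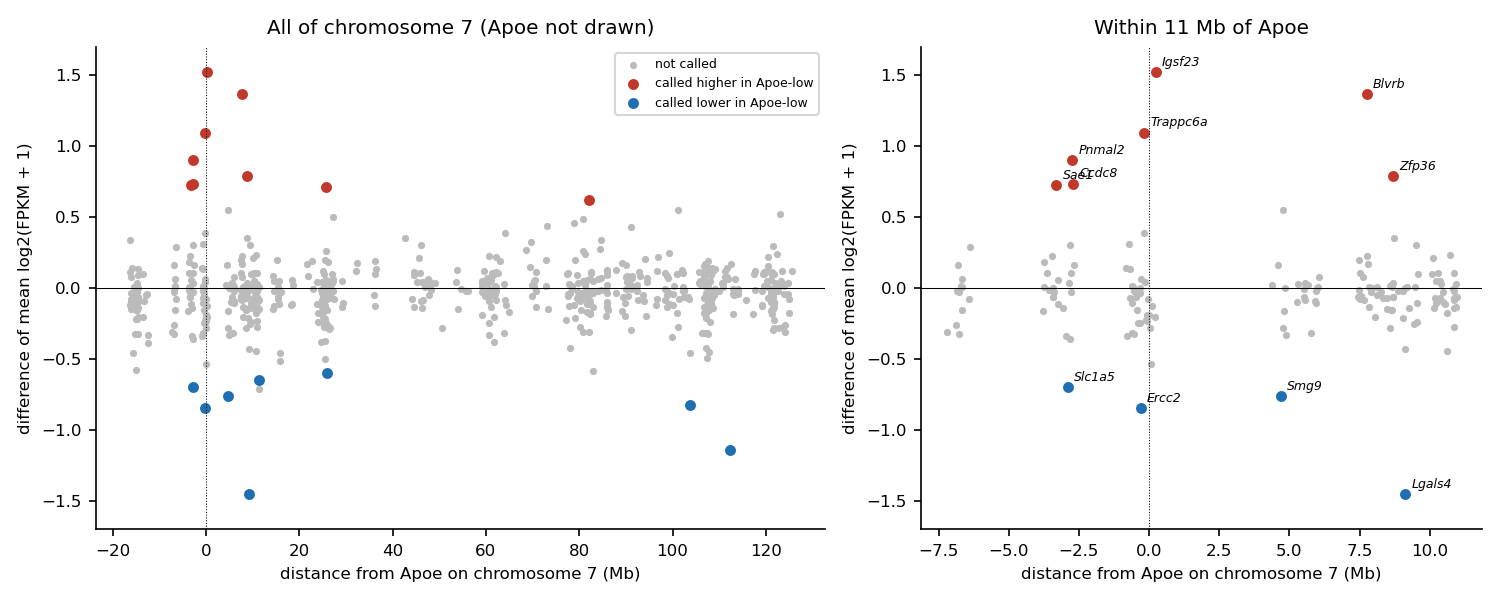
Difference of mean log2(FPKM + 1), Apoe-low minus Apoe-normal, against the distance of each gene from Apoe on chromosome 7 in Mb, for the whole chromosome (left) and near Apoe (right); Apoe is not drawn. Of the 17 coloured (called) genes, 11 lie within 10 Mb of Apoe, and Igsf23 (1.52) and Lgals4 (-1.46) are the extremes.

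Over the whole table, 64 rows were called higher and 32 lower in Apoe-low. A gap of at least 1.5-fold between the nearest libraries of the groups was seen in 21 higher and 6 lower rows. The higher count depended on single libraries, being 171 without control 2, 106 without control 3 and 105 without control 1. It was 32 when the left-out control joined the Apoe-normal group. The lower count was 93 without control 2, 70 without control 4 and 49 without control 5. All 5 PCOS hearts lay on the Apoe-normal side in 25 of the 64 rows called higher (39.1%) and 22 of the 32 called lower (68.8%). Over all separated rows they did so in 47.8% of the higher and 42.3% of the lower ones.

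**Figure D3:**
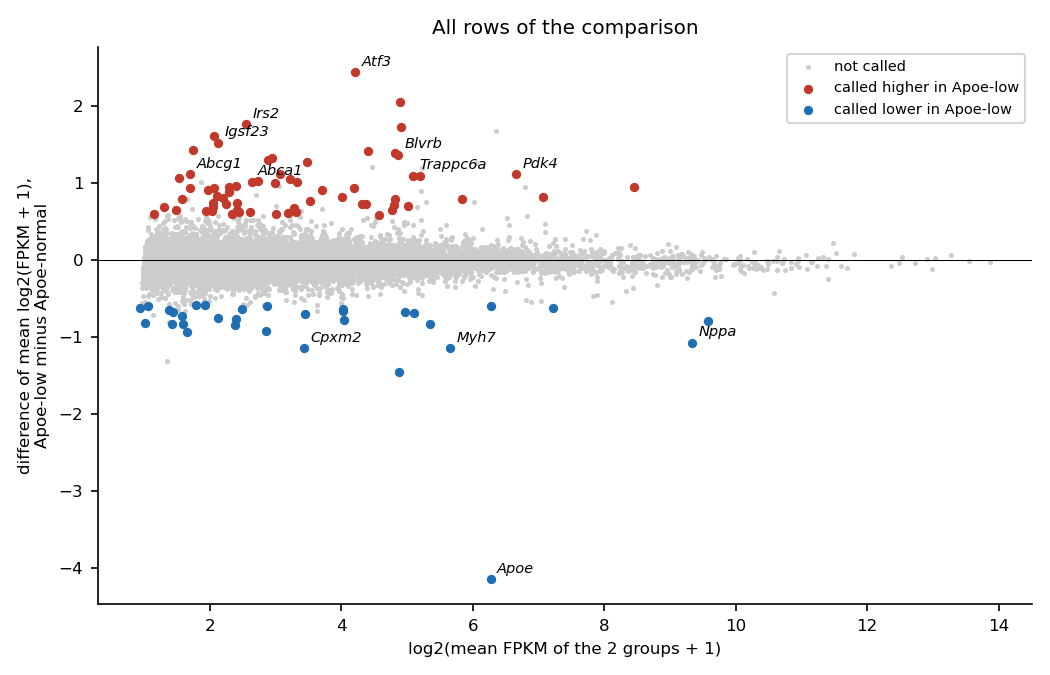
Difference of mean log2(FPKM + 1), Apoe-low minus Apoe-normal, against the log2 mean level of each of the 10772 rows; coloured points are the 64 rows called higher and the 32 called lower. Apoe, which chose the groups, lies alone at -4.14, and Atf3 has the largest positive difference among the labelled genes, 2.44.

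Among the other rows with the widest gaps, Rab4a, a GTPase of endosome recycling on chromosome 8, was at 9.0 and 11.1 FPKM in Apoe-low, and at 2.89, 3.21 and 4.16 in Apoe-normal. Sik1, a salt-inducible kinase, was at 21.8 and 38.2 FPKM in Apoe-low, and at 10.8, 11.2 and 8.80 in Apoe-normal. The highest PCOS heart, at 24.3 FPKM for Sik1, lay between the 2 Apoe-low hearts. Scn4b, the beta-4 subunit of the sodium channel, was lower, at 11.1 and 11.2 FPKM in Apoe-low, and at 19.3, 20.3 and 19.7 in Apoe-normal. The left-out control, at 12.7 FPKM for Scn4b, lay near the Apoe-low pair. Cpxm2, a secreted carboxypeptidase-like protein, was at 5.87 and 5.26 FPKM against 11.1, 10.3 and 21.0. Zkscan3, a repressor of autophagy genes, was at 11.8 and 11.6 FPKM against 20.9, 19.5 and 16.8. Aqp8, Gsta1 and Rasl10a were also called lower, but rested on 11 to 21 reads in each Apoe-low library. Cdh4 and Meig1 completed the 12 lower rows named, with differences of -0.82 and -0.75.

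Immediate-early genes, whose transcription starts within minutes of a stimulus, had the highest median of any list, 0.77. Of 22 members described, 20 had a higher mean in Apoe-low, 11 were separated and higher, and 9 were called. Over all rows, 9.2% were separated and higher and 0.594% called higher. Atf3, a stress-induced transcription factor, was at 11.3 FPKM in control 2 and 51.2 in control 5. It was at 2.94, 6.35 and 2.52 FPKM in Apoe-normal and at 2.81 to 29.1 in the PCOS hearts. Control 5 thus stood far above control 2, and 2 PCOS hearts (17.6 and 29.1) exceeded control 2. Egr3, a zinc finger factor induced by growth signals, was at 2.94 and 7.87 FPKM in Apoe-low, at 1.2, 1.21 and 0.496 in Apoe-normal, and at 7.38 in the left-out control. Fosl2, a member of the AP-1 complex, was at 6.97 and 12.4 FPKM against 4.79, 4.05 and 3.74. Without control 5 the differences of Atf3, Egr3 and Fosl2 were 1.39, 1.03 and 0.62, in place of 2.44, 1.61 and 1.0.

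Fos and Egr1, the best known members, overlapped between the groups. Fos was at 14.9 and 47.0 FPKM in Apoe-low, and at 10.4, 16.4 and 7.64 in Apoe-normal. Egr1 was at 83.4 and 152 FPKM in Apoe-low, and at 22, 89.3 and 20.7 in Apoe-normal. Control 3 was the highest Apoe-normal library for both, and control 2 lay below it. Called members of this list numbered 5 of 22 without control 5, 20 of 23 without control 2 and 19 of 24 without control 3. When the left-out control joined the Apoe-normal group, 1 of 23 was called. Over all 64 rows called higher, control 5 lay beyond control 2 in 54, while in the 32 called lower it did so in 15.

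**Figure D4:**
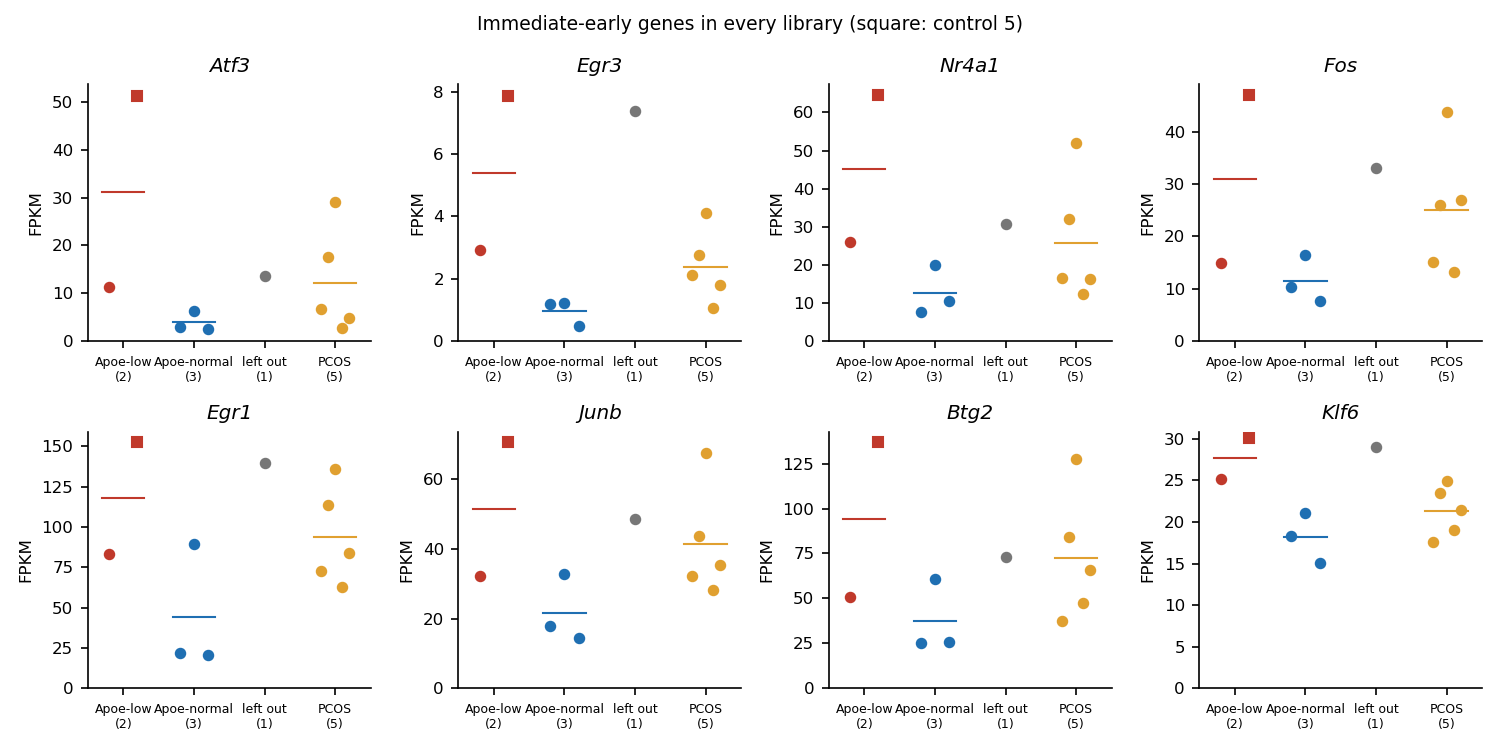
Level in FPKM of 8 immediate-early genes in each of the 11 libraries, grouped as Apoe-low, Apoe-normal, left-out control and PCOS; lines are group means and the square is control 5. Control 5 is the highest library for Atf3 (51.2) and Fos (47.0), while control 2 lies among the other libraries for Fos (14.9) and Egr1 (83.4).

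Glucocorticoid targets and matrix genes held called members that were likewise highest in control 5 among the compared libraries. Sgk1, a kinase induced by glucocorticoids and by serum, was at 36.6 and 60.9 FPKM in Apoe-low, and at 21.0, 30.4 and 15.7 in Apoe-normal, with PCOS hearts at 25.3 to 45.1. Dusp1, the phosphatase that ends MAP kinase signalling, stands in both the immediate-early and the glucocorticoid list, and was at 142 and 198 FPKM against 89.1, 123 and 76.8. These were the 2 called members among 15 glucocorticoid receptor targets, of which 14 had a higher mean in Apoe-low and 3 were separated and higher. The shares over all rows were 9.2% separated and higher and 0.594% called higher. Thbs1, the matrix protein thrombospondin 1, was at 1.91 FPKM in control 2 and 6.14 in control 5, and at 0.602, 0.760 and 0.731 in Apoe-normal. It was the 1 called member among 26 extracellular matrix genes, 25 of which had a higher mean in Apoe-low and 4 of which were separated. Its difference was 0.78 without control 5, in place of 1.43. The fibroblast markers' summed level overlapped, at 319.5 to 374.1 FPKM in Apoe-low and 208.7 to 385.8 in Apoe-normal.

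In Apoe-low, 3 genes of the cardiac stress programme were called lower. Nppa, the atrial natriuretic peptide, was at 364 and 410 FPKM in Apoe-low, and at 503, 726 and 1474 in Apoe-normal. Control 4 supplied the highest of these, and without it the difference of -1.07 became -0.64. Myh7, the slow myosin heavy chain of the foetal ventricle, was at 30.1 and 29.4 FPKM in Apoe-low, and at 51.6, 92.3 and 62.8 in Apoe-normal. Ankrd1, a stretch-responsive protein of the sarcomere, was at 575 and 515 FPKM against 673, 937 and 1332. The PCOS hearts all lay above the Apoe-low pair for Nppa (412 to 635 FPKM) and Myh7 (32.8 to 64.1), the lowest of them narrowly, and reached into the Apoe-low range for Ankrd1 (513 to 969). These were the 3 called of 10 members described, beside 0.297% of all rows called lower. Nppb and Acta1 overlapped between the groups. The list's median was -0.30 and became 0.014 without control 2; called lower were 5 of 10 members without control 1 or without control 5, and 2 of 11 without control 4. Atrial markers summed to 366.2 to 411.5 FPKM in Apoe-low and to 507.8 to 1476 in Apoe-normal, almost all of it Nppa, and the part of atrial tissue in the libraries was not tested.

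Interferon-stimulated genes had 7 of 24 described members separated and higher, 2 separated and lower and 2 called higher. Over all rows, 9.2% were separated and higher, 9.94% separated and lower, 0.594% called higher and 0.297% called lower. Usp18, the protease that removes ISG15, was at 5.70 and 5.52 FPKM in Apoe-low, and at 2.72, 3.90 and 3.35 in Apoe-normal. Ifit1, an RNA-binding effector, was at 5.60 and 5.33 FPKM against 3.11, 4.41 and 2.19, with 5.58 in 1 PCOS heart. Psmb8 and Psmb9, subunits of the immunoproteasome, were the pair that was lower. Of 17 circadian clock genes, 1 was separated and higher, 4 separated and lower, and Dbp alone called. Dbp, an output factor of the clock, was at 68.9 and 53.1 FPKM in Apoe-low, and at 89.8, 93.4 and 93.7 in Apoe-normal.

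No member was called among 18 genes of the sarcomere and Z-disc, 19 of calcium handling and ion channels, 85 of the respiratory chain and 73 cytosolic ribosomal proteins. Over all rows only 0.594% were called higher and 0.297% lower, so 0 called members say little about a list. Outside these lists, the myosin genes Myh7, Myh7b and Myl1 and the sodium channel gene Scn4b were called lower. In the respiratory chain 3 members were separated and higher and 9 separated and lower, and 18 of 85 had a higher mean in Apoe-low. Ribosomal proteins had 21 members separated and lower and 0 separated and higher, beside 9.94% and 9.2% of all rows. Their median was -0.10, and 3 of the 73 had a higher mean in Apoe-low. Over all 10772 rows the difference rose weakly with the transcript length implied by the FPKM (Spearman rank correlation 0.165). The part of transcript length in the list counts was not tested. Heat shock proteins, NRF2 targets and the unfolded protein response had 15 members described each and 0 called.

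**Figure D5:**
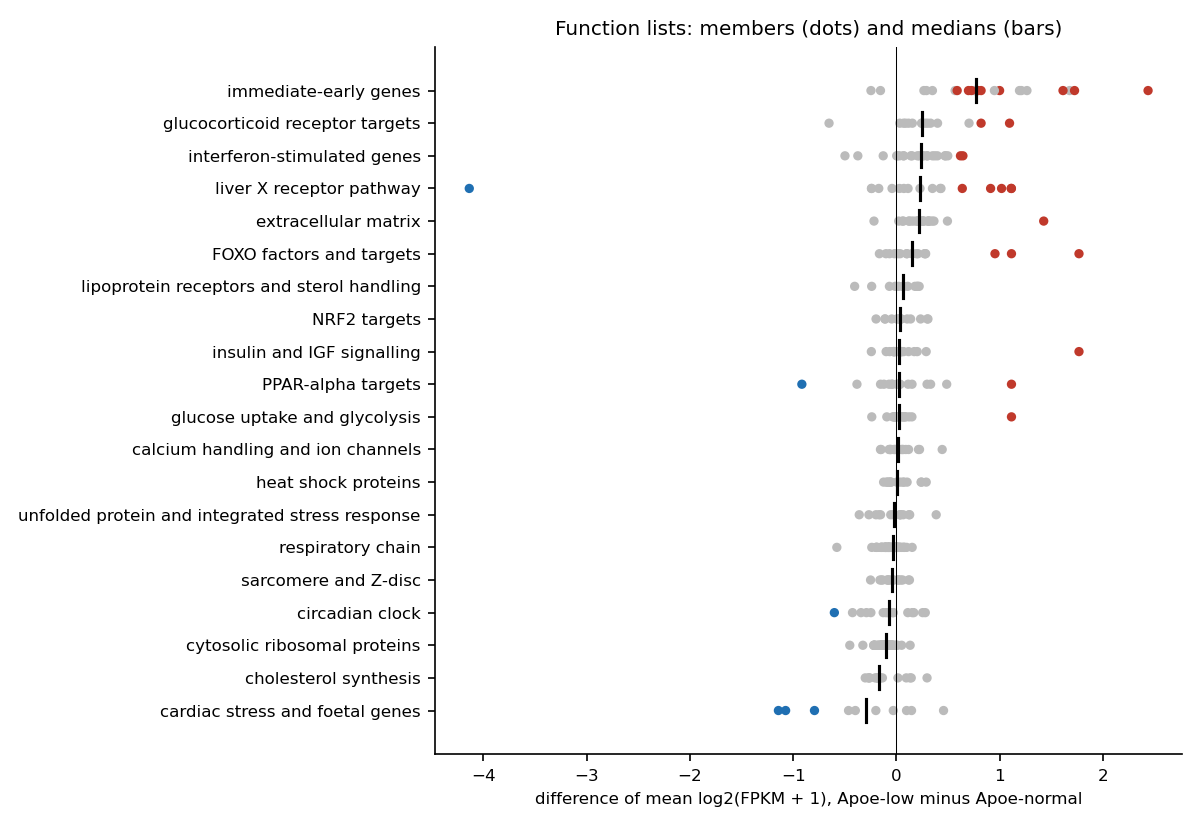
Difference of mean log2(FPKM + 1), Apoe-low minus Apoe-normal, of each described member (dots; red called higher, blue called lower, grey not called) and the median (bar) of the 20 function lists. The immediate-early genes have the highest median (0.77) and the cardiac stress genes the lowest (-0.30); the dot at -4.14 is Apoe.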

How the data were processed

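Heart RNA of 6 control and 5 PCOS samples was extracted with a mirVana kit and made into TruSeq stranded mRNA libraries, per the labels' protocols. Per the submitters' processing notes, the build was mm10 and the tools included HISAT2 2.2.1 and HTSeq 0.13.5; the strand counted was not given in the sources used here. The authors deposited FPKM per RefSeq row, which were used unscaled. FPKM is relative within a library, so abundant changed transcripts can shift the others. Symbols came from RefSeq GRCm38.p6 for 19078 of 21878 rows (87.2%).

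Values were analysed as log2(FPKM + 1) in rows with a mean of at least 1 FPKM over the 5 compared libraries (10772 rows; Python 3.11.15, pandas and numpy). Whole reads were recovered from the FPKM of all 15939 rows with at least 3 values above 0, within 0.05 of a whole number. They gave the read numbers printed, which limit the precision of low rows. The description was tested on simulated data. Xist, Amhr2 and mitochondrially encoded genes were not analysed here, and some withheld genes are not reported here.

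Groups, members and lists were chosen with earlier results of these data known. Named genes are Apoe, Abca1, Abcg1, Mylip and Irs2, the 12 higher and 12 lower called rows with the widest gap (no predicted genes), up to 3 called members of each function list, and any member of the liver X receptor and insulin lists. Others, such as Fos, Egr1, Srebf2 and Lyz2, were named after their values were seen. Alternatives changed the pseudocount, filter, scaling and libraries.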

Additional observations from a re-analysis of the deposited data

Results flagged for a closer look

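Of 74 groups looked at (37 named genes in the 6 control and in the 5 PCOS libraries), 6 held a library flagged as outlying. The flag (Dixon's ratio) compares a library's gap to the next one with the range of its group, so tight groups can be flagged at small gaps. The genes were chosen with values of these data known, so no rate by chance can be set beside this count. Atf3 at 51.2 FPKM, Fosl2 at 12.4 and Thbs1 at 6.14 were far above the other controls in control 5. Apoe at 486 FPKM was far above the other controls in the control left out for Alb. Abca1 at 3.8 FPKM in PCOS 5 and Blvrb at 18.8 in PCOS 1 were flagged by small gaps. The other PCOS hearts were at 2.83 to 3.08 FPKM for Abca1 and 16.9 to 17.2 for Blvrb. Both flagged values stayed below the Apoe-low controls.

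Alb, made by liver cells, was at 851.7 FPKM in the control left out and at most 1.06 in the compared libraries. Other liver genes were present in that library too, with Apoa1 at 274 FPKM and Ttr at 116. Apoc1, a neighbour of Apoe that is strongly expressed in liver, was at 204 FPKM there and at most 0.785 in the compared libraries.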

How the results depend on the processing

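With a pseudocount of 0.1, 100 rows were called higher and 76 lower, and with a filter at a mean of 5 FPKM, 35 and 17, of which 6 lay within 10 Mb of Apoe, since fewer rows were described. With the high-Alb control in the Apoe-normal group, 32 rows were called higher (44 lower); 54 of the 96 called rows remained, and the cause was not tested. Leaving out each compared library gave 53 to 171 rows called higher and 34 to 93 lower, from fewer samples. Median-ratio scaling and quantile normalization each kept 94 of the 96. Of 427 alternative values for named genes 36 moved by more than the spread within groups, and none changed sign. The 37 genes behind these values were all called rows, whose groups do not overlap. Leaving out a library, or changing the pseudocount or filter, therefore could not change their sign. Of 240 alternative values for list medians, 16 moved and 15 changed sign. No paired analysis was made, because the labels give no litter or batch by which libraries of the groups compared could be matched. Depth limits the lowest rows, such as Gsta1 with 11 reads in control 5.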

Other observations

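Neutrophil markers summed to 3.61 to 17.3 FPKM in Apoe-low and 2.82 to 10.4 in Apoe-normal, and smooth muscle and pericyte markers to 276.5 to 297.4 and 303.3 to 312.9. Among rows called higher and outside the function lists, and picked after their values were seen, were the monocyte chemokine gene Ccl2 and the lipid carrier gene Apod. Ccl2 was at 2.86 and 8.47 FPKM in controls 2 and 5, and at 2.47, 1.84 and 2.16 in Apoe-normal. Apod was at 4.62 and 3.74 FPKM in controls 2 and 5, and at 2.58, 2.04 and 1.72 in Apoe-normal.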
